A study of Homo sapiens with 8 samples.

Results

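Interferon-stimulated genes and the IRF and STAT factors that drive them were followed in podocytes in which LATS2, the kinase that phosphorylates YAP in the Hippo pathway, was induced. The members are a list of 39 genes given by symbol, and a row of the deposited gene table was taken where its gene column held one of them. All 39 were found, in 41 of the 29004 loci of the table, because IFITM2 and HERC6 each had 2 loci. The cells were AB8/13, an immortalized human podocyte line, grown at 33 °C, at which the line proliferates, and carrying a doxycycline-inducible wild-type LATS2 construct, delivered by a lentiviral vector, as 1 stable cell line. In 1 group of 4 samples the construct was switched on by doxycycline (125 ng/mL) over 8 h, called LATS2 OE here, and the other group was 4 samples of the line without the drug. All LATS2 OE samples and no untreated sample received doxycycline, so an effect of the drug and an effect of LATS2 cannot be told apart. The sources used here do not say whether the 4 samples of a group were separate cultures.

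Interferons are secreted proteins that warn cells of a virus. Type I and type III interferons act through the kinases JAK1 and TYK2, and the resulting complex of STAT2, its STAT partner and IRF9 binds the interferon-stimulated response element in the promoters of antiviral genes. IRF3 and IRF7 switch on the interferon genes themselves once the RNA sensors encoded by DDX58 (RIG-I) and IFIH1 (MDA5) are engaged, and IRF1 drives many of the same targets without new signaling from the receptor. IRF2 binds the sites of IRF1 and is known mainly as its antagonist. In the glomerulus, interferons are known for their link to injury of podocytes.

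The measured quantity was the FPKM, a read count scaled to transcript length and library size, and the deposited table holds 1 pooled value per group. No spread between samples, standard error or p-value could therefore be computed, the number of reads behind each value is unknown, and each ratio below is a description of 2 pooled values with no replicate check. In cells of the table with a value of at least 1 and 3 or more decimals the decimal point had been lost, and it was put back so that both values and their deposited ratio fitted. This fixed the ratio of the groups for each of the 41 loci, but the level of 32 loci could be as given, 10 or 100 times higher in both groups, and that of 3 loci as given or 10 times higher. The level was settled for 6 loci. Digits of an unsettled level are given at the lowest level the cells allow, so that they carry the ratio but do not rank 1 gene against another. For LATS2 itself the digits were 2.64 in untreated and 53.1 in LATS2 OE cells, or 10 times both, which is 20.1-fold (log2 ratio 4.33), the highest ratio of all named loci that reached 1 FPKM in each group. This size rests on the deposited ratio that placed the decimal point: from both FPKM values alone, taking the ratio nearest to 1, LATS2 stood at 2.01-fold. The 20.1-fold value lies in the direction of the labels. The direction of the 2.01-fold value follows from the leading digits alone and is no separate check.

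The response element is known to be shared by many antiviral genes, and its core was looked up in the promoters of the members. It was spelled GAAANNGAAA and searched on both strands of the 300 bases from 250 before to 50 after the annotated start (RefSeq, GRCh38.p14). Of the 39 members, 30 had a promoter entry. IFIT2, IFITM2, IRF2, IRF3, IRF7, MX2, OAS2, OASL and USP18 had none. The core was present for 21 of the 30 members (70.0%), against 1195 of 27305 genes with a promoter entry (4.38%). The stretches around the core, all of them before the start, are printed for the 6 members with a core and the highest absolute log2 ratios, with the core in capitals. A core on the strand opposite to the gene appears as its reverse complement, in T and C.
RSAD2, chr2:6877582-6877691, plus strand: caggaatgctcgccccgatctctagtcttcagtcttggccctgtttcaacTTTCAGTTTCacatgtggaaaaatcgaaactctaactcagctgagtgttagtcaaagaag
IFIT1, chr10:89392457-89392579, plus strand: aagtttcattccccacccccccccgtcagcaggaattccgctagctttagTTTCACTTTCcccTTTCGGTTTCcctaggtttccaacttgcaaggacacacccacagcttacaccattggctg
IFIT3 (first start), chr10:89327791-89327934, plus strand: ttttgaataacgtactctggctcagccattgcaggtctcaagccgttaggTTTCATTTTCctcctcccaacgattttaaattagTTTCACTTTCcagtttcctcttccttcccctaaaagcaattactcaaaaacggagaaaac
IFIT3 (second start), chr10:89332385-89332528, plus strand: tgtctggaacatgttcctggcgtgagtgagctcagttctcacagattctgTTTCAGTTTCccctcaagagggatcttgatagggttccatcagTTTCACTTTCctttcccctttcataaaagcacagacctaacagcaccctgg
SAMD9, chr7:93118056-93118165, minus strand: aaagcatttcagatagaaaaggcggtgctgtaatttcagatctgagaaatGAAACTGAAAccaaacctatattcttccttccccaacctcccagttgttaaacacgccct
IFI44L, chr1:78620234-78620434, plus strand: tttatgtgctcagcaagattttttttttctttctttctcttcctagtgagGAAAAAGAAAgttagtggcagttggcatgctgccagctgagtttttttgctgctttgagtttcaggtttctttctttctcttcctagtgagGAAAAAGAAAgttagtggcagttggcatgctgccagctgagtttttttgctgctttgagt
ISG20, chr15:88638897-88639006, plus strand: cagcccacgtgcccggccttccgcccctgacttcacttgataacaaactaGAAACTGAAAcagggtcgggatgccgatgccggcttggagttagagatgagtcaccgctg

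The first core lay at position -145 from the start in RSAD2, -116 in IFIT1, -156 and -94 in the 2 promoters of IFIT3, -136 in SAMD9, -164 in IFI44L and -69 in ISG20. In IFIT1 and IFIT3 the promoters held 2 cores each, all on the strand opposite to the gene. IFI44L held the same core letters in each of its 2 matches. DDX58, HERC6, IFI35, IRF1, IRF9, OAS1, SAMD9L, STAT2 and XAF1 had an entry and no match, which says only that these letters are absent from that window.

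As a group, the members stood slightly higher in LATS2 OE than in untreated cells. IFIT1, IFIT2 and IFIT3, which encode RNA-binding proteins that block translation of foreign RNA, OASL, the catalytically inactive relative of the oligoadenylate synthetases, the neighbours SAMD9 and SAMD9L, and the factors IRF1 and IRF2 were 1.28-fold to 1.38-fold higher. RNA from bulk cultures does not tell more RNA per cell from more responding cells. A difference was counted from 25% higher or, by the same factor, 20% lower on. No member reached the lower bound, and the lowest ratio was that of IFIT5, at 0.960. Of the 38 members with 1 FPKM or more in each group, 34 (89.5%) had a ratio above 1, against 48.5% of 11911 named loci of that level. The share of members at least 25% higher was 8 of 38 (21.1%), against 4.14% of the named loci, and the share at least 20% lower was 0 of 38, against 4.68%. At 1.1-fold or more there were 20 members (52.6%), against 13.8% of the named loci. The named loci include the members, and the members were chosen with earlier results of these data known. The median log2 ratio of the members was 0.14 (interquartile range 0.05 to 0.23), that is 1.103-fold, while that of all named loci was -0.0040 (interquartile range -0.07 to 0.07).

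**Figure D1:**
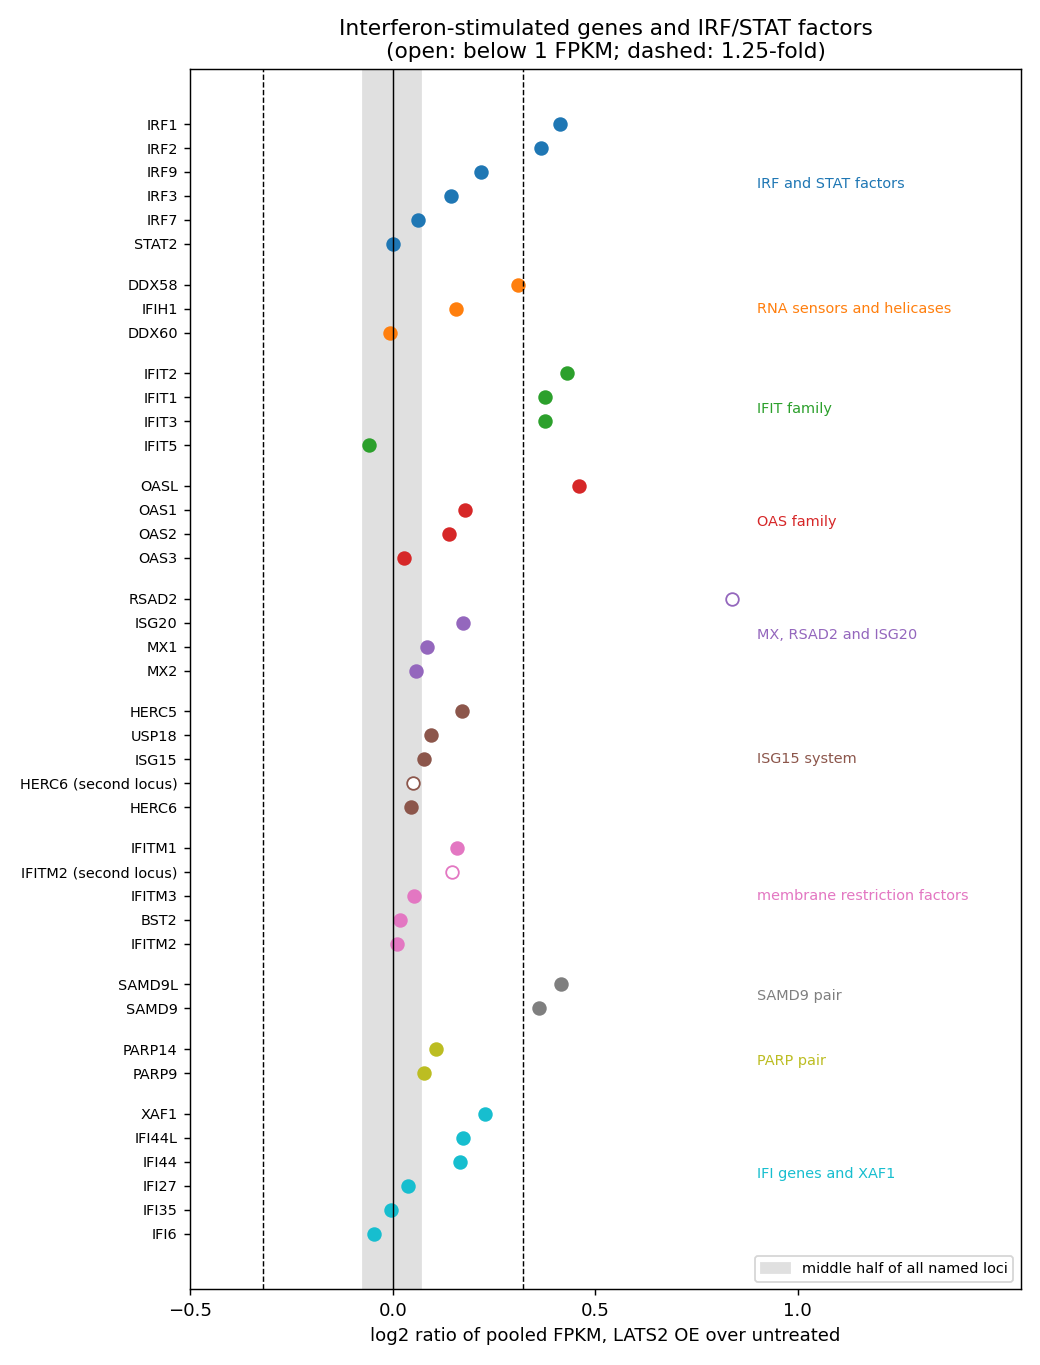
Log2 ratio of the pooled FPKM in LATS2 OE over untreated cells (horizontal axis) for each of the 41 member loci, grouped by role. Filled points are loci with 1 FPKM or more in each group, open points lie below 1 FPKM, the grey band is the interquartile range of all named loci of at least 1 FPKM, and dashed lines mark 25% higher and 20% lower. The 8 filled points to the right of the upper line lie between 0.36 and 0.46.

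**Figure D2:**
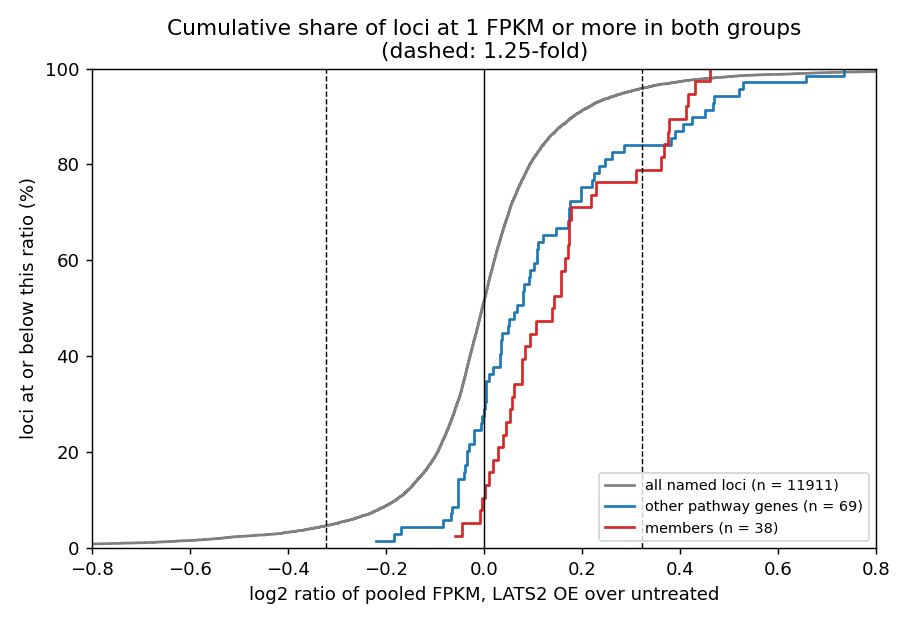
Share of loci at or below a given log2 ratio (vertical axis, in percent) for the 38 members, 69 other interferon pathway genes and 11911 named loci, all with 1 FPKM or more in each group, with dashed lines at 25% higher and 20% lower. The members have a median of 0.14 and all loci one of -0.0040, and 4 members lie below 0.

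The transcription factors differed among themselves. IRF1 (hg19 chromosome 5, 131817301 to 131826515, minus strand) read 1.0995 in untreated and 1.4634 in LATS2 OE cells, a log2 ratio of 0.41, and 2.52% of the named loci reached such a ratio. IRF2 (chromosome 4, 185308864 to 185395726, minus strand) read 5.41 and 6.97, a log2 ratio of 0.37. The ratios of the activator and its antagonist were 1.33 and 1.29. IRF9, the DNA-contacting subunit of the STAT2 complex, read 1.45 and 1.68 (log2 ratio 0.22), which 7.75% of named loci reached, but 33.9% of its 80-base windows (80 bases being the read length) also occur in transcripts of another annotated gene. For IRF1 that share was 5.29% and for IRF2 it was 0%. No other locus of the deposited table overlapped that of IRF9, so whether the sharing touched its value is unknown. IRF3, a factor activated downstream of the sensors, read 2.29 and 2.53 (log2 ratio 0.14), and its locus shared its span with BCL2L12 (log2 ratio 0.05). IRF7, which is itself induced by interferon, read 1.92 and 2.01 (log2 ratio 0.06). STAT2, the partner of IRF9, read 5.77 and 5.78, a ratio of 1.00.

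The sensors also differed in their ratios. DDX58, the sensor of short RNA with a 5′ triphosphate, read 7.05 in untreated and 8.74 in LATS2 OE cells. At 1.24-fold it lay just short of the 25% bound, whereas SAMD9, just past it, stood at 1.28-fold. Of the 80-base windows of DDX58 83.7% also occur in transcripts of another gene annotated in GENCODE v44lift37. In the deposited table no other locus overlapped that of DDX58, so whether this sharing touched its value is unknown. IFIH1, the sensor of long double-stranded RNA, read 6.34 and 7.07 (log2 ratio 0.16). DDX60, a helicase described as a cofactor of RIG-I, had settled levels of 5.77 and 5.74 FPKM and a log2 ratio of -0.0082.

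In the IFIT cluster on chromosome 10 the ratio was not the same along the array. IFIT2 read 1.11 in untreated and 1.49 in LATS2 OE cells, the second highest ratio among the 38 members (log2 ratio 0.43). IFIT3 read 2.05 and 2.65, and IFIT1 read 1.24 and 1.60, with log2 ratios of 0.38 for both genes. IFIT5, the neighbour at the distal end of the array, from 91174325 to 91180759, read 8.84 and 8.49 (log2 ratio -0.06), and 70.9% of the named loci reached that ratio. The promoter of IFIT5 held 3 cores of the response element, against 2 in IFIT1. The IFIT5 core at position -4 runs past the start, and IFIT5 and IFIT1 each held 2 cores wholly before it. In the deposited table, IFIT1, IFIT2 and IFIT3 were given 1 common span, from 90973324 to 91172673, which also took in IFIT1B, below 1 FPKM in untreated cells, and LIPA, a lysosomal lipase gene with a log2 ratio of -0.0085. Of the 80-base windows of annotated IFIT1 transcripts 0% also occurred in transcripts of another gene. For IFIT3 this share was 0.287%, all of it with LIPA. For IFIT2 it was 7.56%, with another annotated gene.

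Among the oligoadenylate synthetase genes, whose enzymes make short oligoadenylates on sensing double-stranded RNA, the family member without this activity stood highest. OASL (chromosome 12, 121458095 to 121477045, minus strand) read 5.48 in untreated and 7.54 in LATS2 OE cells. Its log2 ratio of 0.46 was the highest of the 38 members, and 2.03% of named loci reached it. The active synthetases OAS1, OAS2 and OAS3 lie next to each other on the same chromosome and had lower ratios. OAS1 read 6.46 and 7.31 (1.13-fold), OAS2 read 3.77 and 4.15 (1.101-fold) and OAS3 read 2.05 and 2.10 (1.02-fold).

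SAMD9 and SAMD9L, adjacent genes on chromosome 7 that restrict poxviruses and slow cell growth, had similar ratios. SAMD9L, from 92759367 to 92777718, read 7.33 in untreated and 9.78 in LATS2 OE cells (log2 ratio 0.42). SAMD9, from 92728826 to 92747336, read 4.92 and 6.31 (log2 ratio 0.36). Both genes are on the minus strand, neither shared an 80-base window with another gene, and the response element core was found in the promoter of SAMD9 alone of the pair.

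The best known antiviral effectors were closer to a ratio of 1. MX1 and MX2, which encode dynamin-like GTPases that trap viral nucleocapsids, had ratios of 1.06 and 1.04. ISG20, an exonuclease, read 1.59 in untreated and 1.79 in LATS2 OE cells (1.13-fold). RSAD2 (viperin), a radical enzyme that makes a chain-terminating nucleotide, was the exception in size, with settled levels of 0.127 FPKM in untreated and 0.227 FPKM in LATS2 OE cells, 1.79-fold. It was the only member with no locus of at least 1 FPKM, and 5.41% of its 80-base windows also occur in the neighbour CMPK2. Of 6323 named loci below 1 FPKM in both groups, 13.7% had a ratio at least as high, and the interquartile range of their log2 ratios ran from -0.23 to 0.49.

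The ISG15 system conjugates a ubiquitin-like protein to new viral and cellular proteins. ISG15, the modifier, read 1.08 in untreated and 1.13 in LATS2 OE cells (1.055-fold). USP18, the protease that removes ISG15 and restrains the interferon receptor, stood at 1.07-fold, and 18.9% of its 80-base windows also occur in USP41, so its value is uncertain. HERC5, the main ligase for ISG15, read 6.20 and 6.98 (1.13-fold), and its neighbour HERC6 stood at 1.03-fold. The second HERC6 locus had the same span and settled levels of 0.878 and 0.909 FPKM. UBA7, the activating enzyme of ISG15 and no member of the list, stood at 1.58-fold, higher than ISG15, USP18, HERC5 and HERC6. UBE2L6, the conjugating enzyme, stood at 1.06-fold.

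The membrane factors that stop virus entry or release had ratios close to 1. IFITM1, IFITM2 and IFITM3, which stiffen membranes against fusion, had ratios of 1.12, 1.01 and 1.04, and BST2 (tetherin), which holds budding virions at the surface, had one of 1.01. The second IFITM2 locus, beyond the end of the annotated gene, had 0.614 and 0.679 FPKM. The 3 IFITM genes are near copies in part. Of the 80-base windows of IFITM1 23.6% also occur in other annotated genes (7.93% in IFITM3), of those of IFITM2 10.2% (8.21% in IFITM1) and of those of IFITM3 20.4% (8.47% in IFITM1). How such reads were assigned is not shown by the table, so the single values are uncertain.

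PARP9 and PARP14, ADP-ribosyltransferase genes that shape the interferon response, had ratios of 1.06 and 1.08. The level of PARP14 was settled, at 8.95 FPKM in untreated and 9.63 FPKM in LATS2 OE cells. PARP9 shares its span with DTX3L, which encodes its partner and had a ratio of 1.07. Among the remaining members, XAF1, which antagonizes the apoptosis inhibitor XIAP, read 2.72 and 3.18 and stood highest at 1.17-fold, although 63.4% of its 80-base windows also occur in the annotated gene PRAL. The locus of XAF1 was overlapped by no other locus of the deposited table, so whether this sharing touched its value is unknown. The neighbours IFI44L and IFI44 stood at 1.13-fold and 1.12-fold. IFI27, a mitochondrial and nuclear membrane protein gene, and IFI35 stood at 1.03-fold and 0.997-fold. IFI6, an inhibitor of apoptosis induced by interferon, had the highest settled level of the members, 146 FPKM in untreated and 142 FPKM in LATS2 OE cells, a ratio of 0.969.

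Among members with a promoter entry, those with the response element core did not have the higher median. The median log2 ratio was 0.09 for the 20 members of at least 1 FPKM with a core and 0.22 for the 9 with a promoter entry and no core, and 3 and 2 of these were at least 25% higher. The 9 members without a promoter entry are in neither group. They include OASL and IFIT2, the members with the highest ratios of the 38, and IRF2, so the comparison leaves out part of the largest ratios. The gamma-activated site, bound by STAT dimers and spelled TTCNNNGAA, which reads the same on both strands, was found for 10 of the 30 members (33.3%) and for 9.38% of all genes with a promoter entry. The core of the TEAD factors, the DNA-binding partners of YAP, spelled GGAATG and searched on both strands, was found for 7 members (23.3%), namely IFI35, IFIT1, IFIT3, IRF9, PARP14, RSAD2 and STAT2, and for 16.7% of all genes. The median log2 ratio was 0.16 both for the 6 of them of at least 1 FPKM and for the 23 members with a promoter entry and no match. A gene with several promoters was counted once, and matches of different motifs were allowed to overlap. These are letter matches, and binding was not measured.

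**Figure D3:**
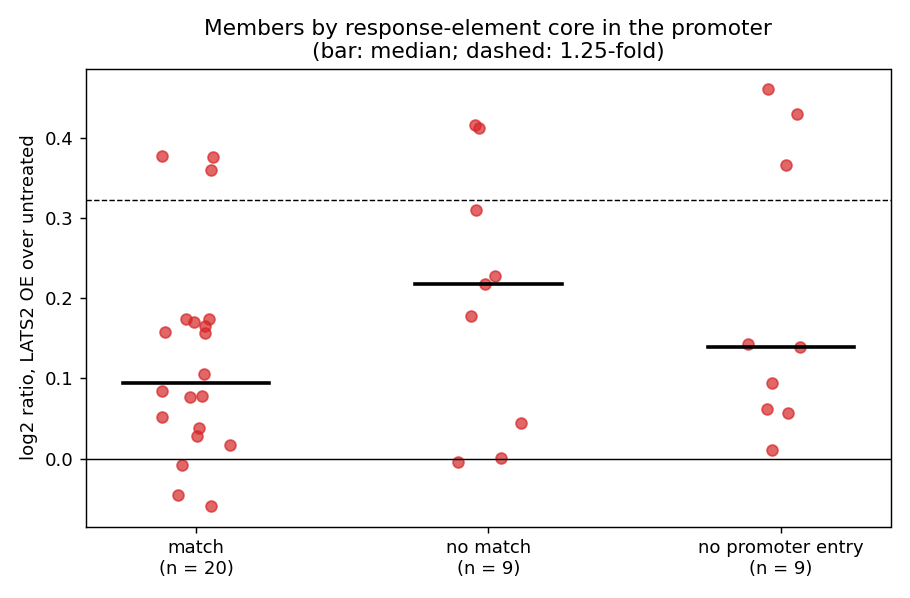
Log2 ratio of the pooled FPKM in LATS2 OE over untreated cells (vertical axis) for the 38 members of at least 1 FPKM, by whether their promoter held the response element core, did not hold it or had no entry. Bars are medians, 0.09 with a match and 0.22 with an entry and no match, and the dashed line marks 25% higher.

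The other genes of the pathway were taken from a list of 91 genes. No interferon gene of the list reached 1 FPKM. IFNB1, the type I interferon that most cells can make, was listed at 0.0528 FPKM in untreated and 0.0821 FPKM in LATS2 OE cells, IFNE at 0.0281 and 0.0708 FPKM, and the type III interferon IL29 at 0.0218 and 0.00990 FPKM. IFNW1 was listed at 0 in untreated cells and at 0.0145 FPKM in LATS2 OE cells, and the other 6 ligands (IFNA1, IFNA2, IFNK, IFNG, IL28A and IL28B) at 0 in both groups. All 9 receptor and kinase genes reached 1 FPKM in each group. IFNAR1 and IFNAR2, the type I receptor chains, stood at 1.04-fold and 1.02-fold, IFNGR1 and IFNGR2, those of type II, at 1.147-fold and 0.976-fold, and IL28RA and IL10RB, those of type III, at 1.22-fold and 1.06-fold. The kinase genes JAK1, JAK2 and TYK2 stood at 1.00-fold, 1.08-fold and 0.986-fold.

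Of the 91 listed genes, 69 reached 1 FPKM in each group. Of these, 11 (15.9%) were at least 25% higher and 0 at least 20% lower, and 49 (71.0%) had a ratio above 1. Their median log2 ratio was 0.07. Among them were TNFSF10, the death ligand TRAIL, at 1.66-fold, UBA7, SLFN5 at 1.44-fold, the chemokine genes CXCL10 at 1.43-fold and CXCL11 at 1.32-fold, APOL6 at 1.38-fold, IRF2BP2, a corepressor that binds IRF2, at 1.37-fold, TLR3, the endosomal sensor of double-stranded RNA, at 1.34-fold, and PML, the organizer of nuclear bodies, at 1.31-fold. Several classical targets lay at or below 1, among them EIF2AK2 (PKR) at 0.963, ADAR at 0.995, DHX58 at 0.973 and PSMB8 at 1.00. The lowest was TRIM5, a restriction factor, at 0.858. SOCS1, which blocks JAK kinases in a feedback loop, had settled levels of 0.924 FPKM in untreated and 2.33 FPKM in LATS2 OE cells, a ratio of 2.52. It was left out of the 69 because it had less than 1 FPKM in untreated cells. The share of loci of such levels that reach this ratio was not computed, so how unusual it is remains unknown. SOCS3 stood at 1.05-fold.

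**Figure D4:**
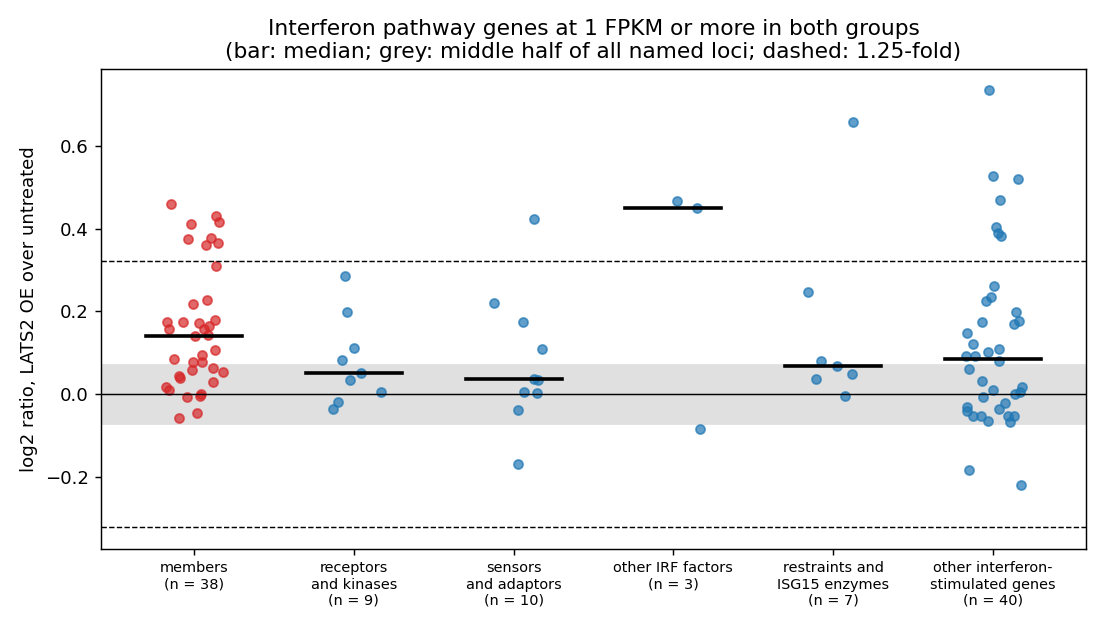
Log2 ratio of the pooled FPKM in LATS2 OE over untreated cells (vertical axis) for the 38 members and for 5 lists of other interferon pathway genes, all with 1 FPKM or more in each group. Each point is a gene, bars are medians, the grey band is the interquartile range of all named loci, and dashed lines mark 25% higher and 20% lower. No point lies below the lower line.

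Most of the podocyte markers looked up lay below 1 FPKM in both groups. NPHS1, which encodes nephrin of the slit diaphragm, was listed at no more than 0.00875 FPKM, and WT1 at 0.413 FPKM in untreated and 0.412 FPKM in LATS2 OE cells. Of 16 podocyte markers, SYNPO, PODXL, CD2AP, ACTN4 and VIM reached 1 FPKM in each group, with VIM at 1224 and 1365 FPKM. The levels of SYNPO, PODXL, CD2AP and ACTN4 were not settled. Of 8 leukocyte markers, CD68, a lysosomal protein gene also used by other cells, had at least 1 FPKM (1.09-fold), and 7 lay below 1 FPKM in both groups. LYZ was at 0.425 FPKM in untreated and 0.363 FPKM in LATS2 OE cells, CD14 at 0.263 and 0.302 FPKM, and CSF1R at 0.0765 and 0.174 FPKM. PTPRC (CD45), which all leukocytes carry, was at 0.00234 and 0.00360 FPKM, and CD3E and ITGAM were at no more than 0.0159 FPKM in either group. CLEC4C, IL3RA and LILRA4 of plasmacytoid dendritic cells were listed at 0 in both groups. All 6 endothelial markers were below 1 FPKM, while PDGFRB and ACTA2 of 4 mesangial markers and AQP1 of 5 tubular markers reached it.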

How the data were processed

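RNA was measured by poly(A) RNA sequencing in 8 samples, 4 per group, assigned from their titles. Per the labels, the authors used Trimmomatic (version 0.33) for trimming, TopHat for alignment (build hg19) and the Cufflinks package for FPKM. For these last tools, version and annotation were not given in the sources used. The authors deposited 1 table with a pooled FPKM value per group. It also holds the authors' fold changes, test statistics, p-values and q-values. The test statistics, p-values and q-values were neither used nor printed. The deposited fold-change column, itself with damaged decimal points and hence treated as a score, served to place the points in the FPKM values. Of 20636 loci above 0 in both groups, 20626 had 1 ratio within 0.002 (log2). Each ratio from this step therefore equals a reading of the deposited fold change within that margin. On simulated pairs the step returned the ratio of 2000 of 2000. These pairs lost their points by the assumed rule and came with their true ratio, so this outcome was built in. It checks the code and does not show that the deposited values were damaged in this way. The library kit, as named in the methods, is not stated to mark strand, so reads from the bases that overlapping genes share cannot be assigned by strand.

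Ratios were computed in Python (version 3.11.15) from the repaired FPKM, with no pseudocount. Counts used loci with 1 FPKM or more in each group and a bound of 25% higher or 20% lower. A design with samples as replicates could not be fitted, so no test was run. Members and lists were chosen with earlier results of these data known. Ratios are given for all members, levels for the listed ligands, and ratios for the receptors and for other listed genes past that bound; some listed genes that enter the counts are not reported here by name, and further listed genes are examples chosen after their values were seen. Gene positions are those of the table in hg19, strands are from GENCODE v44lift37, and promoter sequences are from RefSeq (GRCh38.p14). Shared 80-base windows were counted over protein-coding transcripts of a member, on either strand, against transcripts of all other genes. Alternatives covered the fold, the level filter, the pseudocount, centring, loci with several names and the placing of the decimal point.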

Additional observations from a re-analysis of the deposited data

How the results depend on the processing

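With a bound of 1.5-fold in place of 25%, 0 members were past the fold in either direction, against 1.23% of named loci higher and 1.72% lower, so every member difference at 1 FPKM or more was smaller than 1.5-fold. With a bound of 15%, 11 members were higher and 0 lower, against 8.62% and 8.81% of named loci. With a level filter of 0.1 FPKM, or with none, 9 members were higher, RSAD2 being added, against 7.87% and 14.8% of named loci. Placing the decimal point from both FPKM values alone, by the power of 10 that brings their ratio nearest to 1, gave the same ratio for all 41 member loci, while LATS2 then stood at 2.01-fold in place of 20.1-fold. For the members this outcome was fixed in advance, because the rule returns any ratio near 1 unchanged. Centring on the median of all loci, counting only loci with 1 gene name, and a pseudocount of 0.1 FPKM at the lowest level left 8 members higher and 0 lower. The median log2 ratio of the members lay between 0.1364 and 0.1450 under the alternatives tried. No paired analysis was possible because the table holds pooled values and carries no replicate numbers, and for the same reason no replicate could be left out. The depth of each sample is not given and limits every ratio near 1.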
